A study of Bos taurus with 30 samples.

Results

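The subject here is a family of extracellular matrix genes, the chains of fibrillar collagen types I, III and V and of the beaded-filament collagen type VI, measured in bovine endometrium. The members were all probes of the array whose single gene symbol named chain 1, 2 or 3 of these types. That gave 8 probes of 7 genes among 13824 probes and 8073 named genes: COL1A1, COL1A2, COL3A1, COL5A3, COL6A1, COL6A2 with 2 probes, and COL6A3. Each of the 8 probes passed the filter on missing values, which 13818 probes passed in all. The family was chosen by the measured ratios of COL1A2, COL3A1 and COL6A3, which were large in SCNT animals. The SCNT values below are therefore a description and carry no test. The members were also named from the mean over all cows, which takes in the IVF-ET and AI cows. Values of those cows are thus no independent check of the choice.

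There were 5 cows with an embryo from somatic cell nuclear transfer (SCNT, the cloning procedure), 5 with an embryo fertilised in vitro and then transferred (IVF-ET) and 5 in which the pregnancy came from artificial insemination (AI). Every array carried both sorts of endometrium of 1 cow, the caruncle, where the placenta attaches, and the intercaruncle, the gland-bearing tissue between those sites. Each cow had 2 arrays, with the Cy3 and Cy5 dyes exchanged between the tissues on 14 of 15 pairs. Breed, age, stage of pregnancy and the donor cells of the clones are not given in the sources used here. A value is thus a log2 ratio between the 2 tissues of a cow, not a level in either tissue.

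Type I collagen is a rope-like trimer built from COL1A1 and COL1A2 chains and is the main tensile fibre of most connective tissues. Type III, made of COL3A1 chains alone, forms finer fibres with it in soft, distensible organs such as the uterus, and type V chains take part in starting fibrils and setting their width. Type VI is assembled from COL6A1, COL6A2 and a larger partner, often COL6A3, into microfilaments that link cells to the surrounding matrix. Fibroblasts are the usual source of these chains, and the uterine lining remodels them during implantation and placental attachment.

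Several features of the arrays bear on every value below. The deposited values were read as tissue ratios, with the dyes already accounted for. Which tissue stands on the positive side is not settled, so values are called positive or negative. Over 13818 probes, which cannot count as independent replicates, the mean SCNT and IVF-ET profiles correlated at r = 0.45. The AI profile correlated at -0.29 with the SCNT profile and at -0.27 with the IVF-ET profile, which puts its sign in doubt. AI results are therefore shown with the deposited sign and with the opposite one. IVF-ET replicate 3 had 1 dye orientation on both its arrays in the labels, yet their collagen medians were 0.92 and -1.08, so this cow was left out and 14 remained. The arrays of AI replicate 1 also opposed each other, with medians of -0.96 and 2.42. SCNT replicate 5 stood apart in spread: its arrays had SDs of 0.82 and 0.72 over probes, against 0.23 to 0.57 on the other 28 arrays.

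Across the family, the chains lay on the negative side in SCNT and IVF-ET cows. The median of the 8 probes was -0.97 in SCNT, -0.46 in IVF-ET and 0.36 in AI as deposited (-0.36 turned). The median of all tested probes was within 0.01 of 0 in each group, which follows from centring each array on its median. On single arrays, before any dye adjustment, the collagen median was below 0 on 10 of 10 SCNT arrays and on 8 of 8 IVF-ET arrays, under both dye orientations. In AI cows it was below 0 on 4 of 10 arrays. The median per cow was -1.36, -0.37, -0.42, -0.92 and -1.67 in SCNT replicates 1 to 5, and -0.72, -0.75, -0.16 and -0.37 in IVF-ET replicates 1, 2, 4 and 5. In AI replicates 1 to 5 it was 0.62, 0.17, 0.51, 0.29 and -0.096. SCNT cows thus ran lower than IVF-ET cows in the median but overlapped them, and AI replicate 5 was the one AI cow on the negative side. Read instead as plain dye ratios, the same values gave collagen medians of 0.093 in SCNT and 0.033 in IVF-ET cows, so each result below rests on the reading as tissue ratios. Over all probes, the 2 arrays of a cow correlated below 0 in 7 of 14 cows (4 AI and 3 IVF-ET), with r between -0.32 and 0.65, before the dye effect was taken off.

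**Figure D1:**
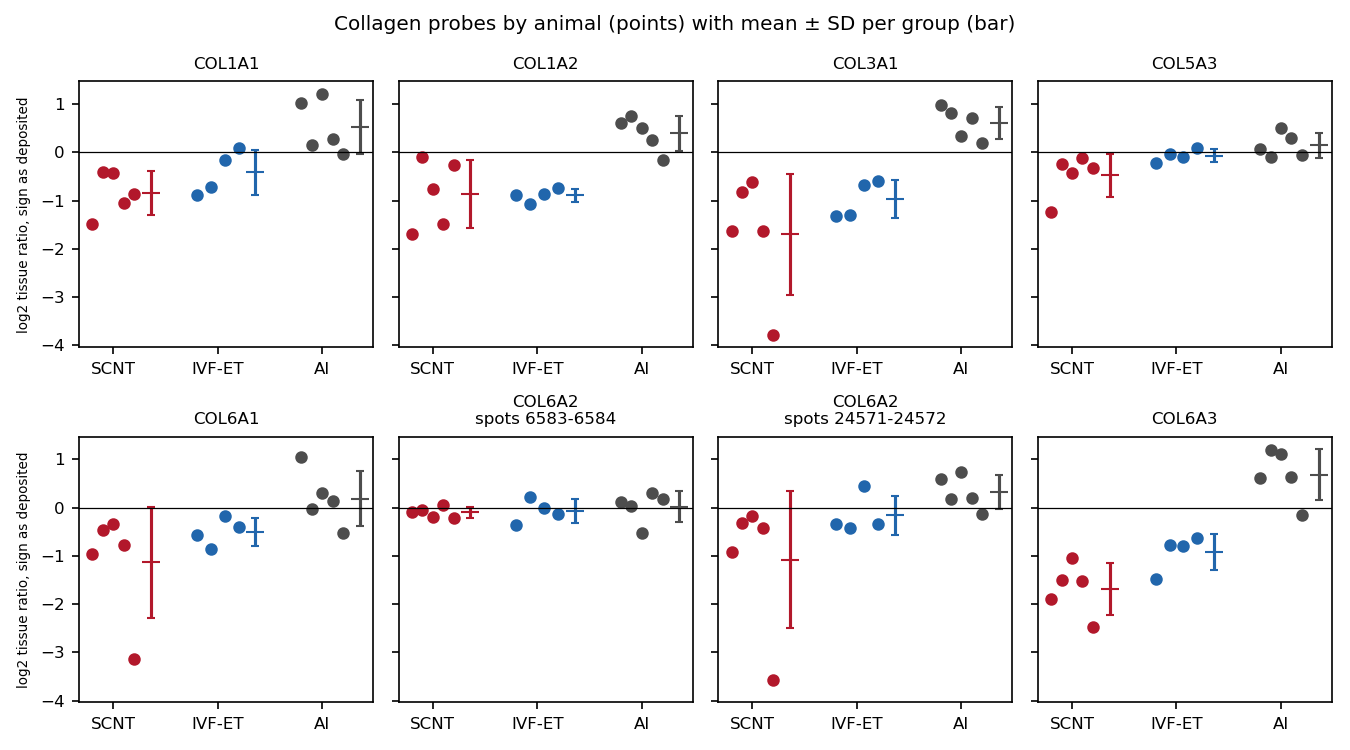
Log2 ratio between the 2 tissues (vertical axis, sign as deposited) of the 8 collagen probes; points are cows, grouped as SCNT, IVF-ET and AI, and the bar beside them is the group mean ± SD. The SCNT points of COL3A1 and COL6A3 lie below 0 in 5 of 5 cows and the IVF-ET points in 4 of 4, and SCNT replicate 5, the rightmost SCNT point, lies far below the other cows for COL3A1, COL6A1 and the COL6A2 probe of spots 24571 and 24572.

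**Figure D2:**
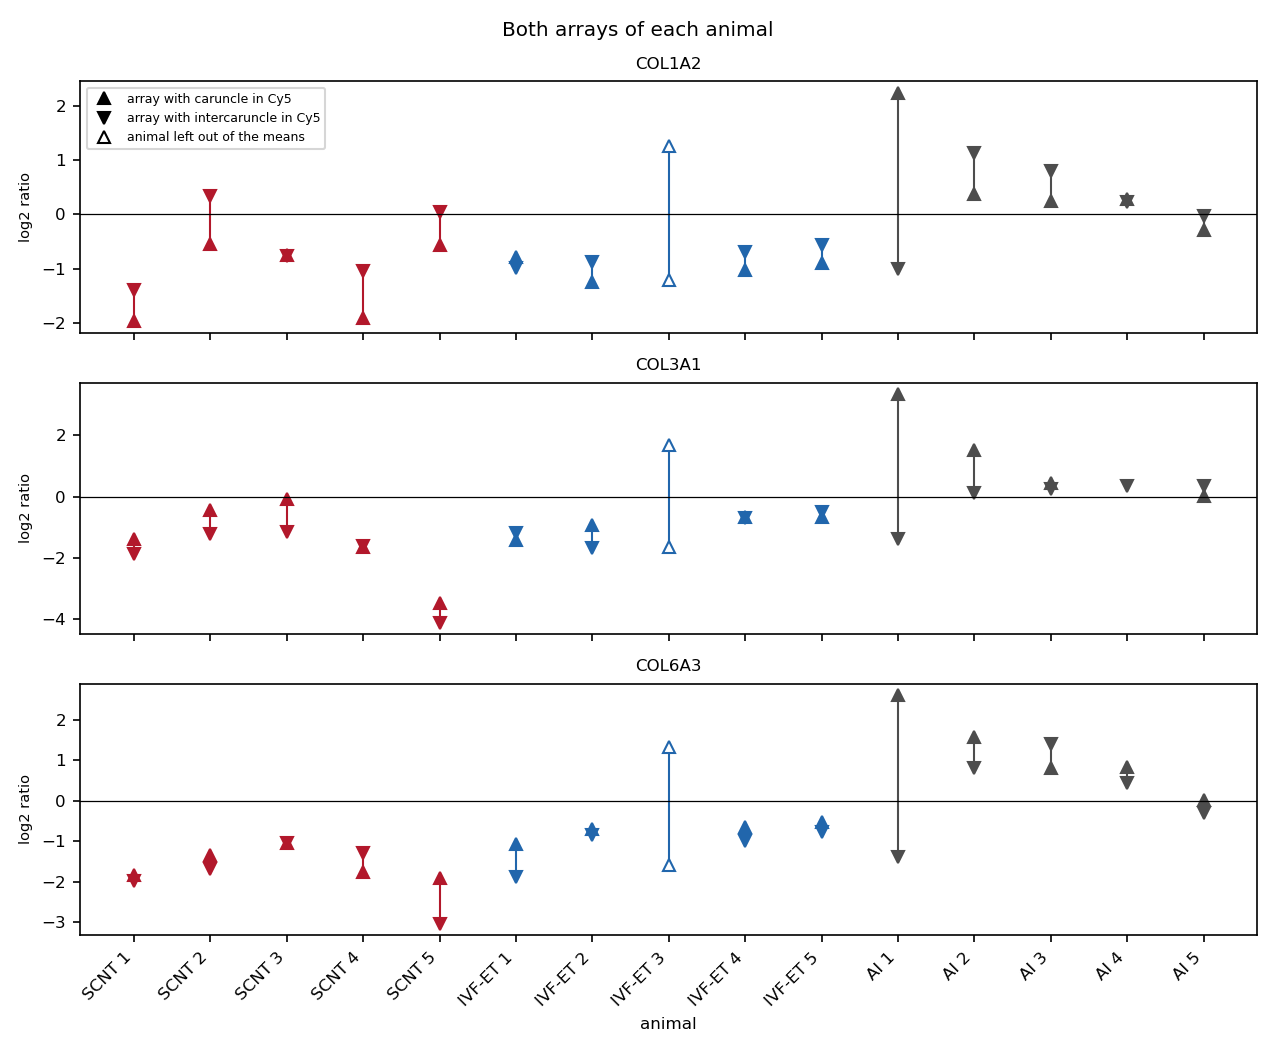
Log2 ratio (vertical axis, array values centred on the median, before the dye effect was taken off) of COL1A2, COL3A1 and COL6A3 on both arrays of each of the 15 cows, joined by a line; the marker shows which tissue carried Cy5, and open markers are the cow left out. COL3A1 and COL6A3 lie below 0 on 10 of 10 SCNT arrays under both dye orientations. The arrays of AI replicate 1 and of IVF-ET replicate 3 lie on opposite sides of 0 for each gene shown. So do those of SCNT replicates 2 and 5 for COL1A2 and of AI replicate 5 for COL6A3.

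Among the fibrillar chains, COL3A1 (gene ID 510833) had the most negative SCNT mean of the family, close to that of COL6A3. Its ratio was -1.64, -0.83, -0.62, -1.63 and -3.79 in SCNT replicates 1 to 5. It was -1.31, -1.29, -0.67 and -0.59 in IVF-ET replicates 1, 2, 4 and 5, and 0.98, 0.82, 0.34, 0.71 and 0.19 in AI replicates 1 to 5 as deposited. As deposited, every SCNT cow was below every AI cow (1.65% of all probes), and so was every IVF-ET cow (1.85%). With the AI sign turned, neither group was separated from AI. The SCNT and IVF-ET cows overlapped. The means were -1.70 ± 1.25 in SCNT (SD, n = 5), -0.96 ± 0.39 in IVF-ET (n = 4) and 0.61 ± 0.33 in AI (n = 5). On the log2 reading the SCNT and IVF-ET means correspond to 3.25-fold and 1.95-fold ratios between the tissues. The AI value of replicate 4 came from 1 array, since the other had no value for this probe.

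COL1A2 (gene ID 282188), the minor chain of the type I trimer, had nearly the same mean in SCNT and IVF-ET cows but a wider spread in SCNT. It was -1.68, -0.11, -0.75, -1.47 and -0.26 in SCNT replicates 1 to 5, a mean of -0.86 ± 0.71. It was -0.89, -1.06, -0.86 and -0.73 in IVF-ET replicates 1, 2, 4 and 5, a mean of -0.88 ± 0.14. In AI replicates 1 to 5 it was 0.62, 0.75, 0.52, 0.25 and -0.15, a mean of 0.40 ± 0.36. The 4 IVF-ET cows lay close together, while the SCNT cows covered a range that held every IVF-ET value. As deposited, all IVF-ET cows were below the lowest AI cow (1.85% of all probes), but not with the AI sign turned. SCNT minus IVF-ET was 0.029 ± 0.28 (SE from limma).

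COL1A1 (gene ID 282187), which supplies most of the type I trimer, followed the same sides with more scatter. SCNT replicates 1 to 5 had -1.49, -0.42, -0.42, -1.05 and -0.87, and IVF-ET replicates 1, 2, 4 and 5 had -0.88, -0.73, -0.15 and 0.10. AI replicates 1 to 5 had 1.02, 0.15, 1.21, 0.27 and -0.027. As deposited, all SCNT cows were below all AI cows (1.65% of all probes), whereas the highest IVF-ET cow lay inside the AI range. With the AI sign turned, the SCNT and AI cows overlapped. The means were -0.85 ± 0.45 in SCNT, -0.41 ± 0.46 in IVF-ET and 0.52 ± 0.55 in AI cows (SD, n = 5, 4 and 5).

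COL5A3 (gene ID 507881), a type V chain of restricted tissue distribution, had the smallest ratios of the fibrillar members. Its means were -0.47 ± 0.45 in SCNT, -0.066 ± 0.13 in IVF-ET and 0.14 ± 0.26 in AI cows. Single cows lay between -1.24 and -0.12 in SCNT, -0.22 and 0.085 in IVF-ET, and -0.096 and 0.51 in AI. SCNT replicate 1, at -1.24, was well below the other SCNT cows, the lowest of which was at -0.43. No probe of COL5A1 or COL5A2 carried its symbol here, so type V rests on this chain.

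Of the type VI chains, COL6A3 (gene ID 530657) had the most negative means in SCNT and IVF-ET cows. It was -1.90, -1.51, -1.04, -1.52 and -2.46 in SCNT replicates 1 to 5, and -1.47, -0.78, -0.81 and -0.64 in IVF-ET replicates 1, 2, 4 and 5. In AI replicates 1 to 5 it was 0.61, 1.20, 1.12, 0.64 and -0.14. As deposited, every SCNT cow was below every AI cow (1.65% of all probes), and so was every IVF-ET cow (1.85%). With the AI sign turned, neither group was separated from AI. Of the SCNT cows, 4 of 5 were below every IVF-ET cow. The means were -1.69 ± 0.53 in SCNT, -0.92 ± 0.37 in IVF-ET and 0.68 ± 0.53 in AI cows (SD, n = 5, 4 and 5), which are 3.22-fold, 1.90-fold and 1.61-fold ratios. Both COL6A3 and COL3A1 were below 0 on 10 of 10 SCNT arrays and on 8 of 8 IVF-ET arrays. COL1A2 and COL6A1 were below 0 on 8 of 10 SCNT arrays and on 8 of 8 IVF-ET arrays. The share of all probes below 0 on every array was not computed.

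COL6A1 (gene ID 511422) had its lowest value, -3.13, in SCNT replicate 5, and -0.96, -0.47, -0.34 and -0.78 in SCNT replicates 1 to 4. IVF-ET replicates 1, 2, 4 and 5 had -0.57, -0.86, -0.17 and -0.40, and AI replicates 1 to 5 had 1.04, -0.036, 0.30, 0.15 and -0.52. The AI cows reached into the range of the other groups. The means were -1.14 ± 1.14 in SCNT, -0.50 ± 0.29 in IVF-ET and 0.19 ± 0.57 in AI cows. Without AI replicate 1, whose arrays gave -0.92 and 3.01, the AI mean was -0.027.

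COL6A2 (gene ID 282194), whose gene neighbours COL6A1 with 0 protein-coding genes between them in assembly ARS-UCD2.0, had 2 probes that did not move together. The probe of spots 24571 and 24572 was -0.91, -0.32, -0.17, -0.42 and -3.57 in SCNT replicates 1 to 5, and -0.34, -0.42, 0.45 and -0.34 in IVF-ET replicates 1, 2, 4 and 5. In AI replicates 1 to 5 it was 0.60, 0.19, 0.74, 0.20 and -0.13. Its means were -1.08 ± 1.42 in SCNT, -0.16 ± 0.41 in IVF-ET and 0.32 ± 0.35 in AI cows. The probe of spots 6583 and 6584 stayed near 0, at -0.10 ± 0.11 in SCNT, -0.073 ± 0.24 in IVF-ET and 0.021 ± 0.33 in AI cows, and was -0.21 in SCNT replicate 5. The tested probes come with no sequence here, so which of them reads the gene was not tested. A value for the gene COL6A2 therefore depends on the probe taken.

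In SCNT replicate 5, 4 probes of types III and VI stood apart from the type I chains. The type VI probe of COL6A2 at spots 6583 and 6584 did not, with -0.48 and 0.058 on the 2 arrays. On the same arrays COL3A1 read -3.47 and -4.10, and COL6A1 -2.79 and -3.47. The COL6A2 probe of spots 24571 and 24572 read -3.61 and -3.53, and COL6A3 -1.90 and -3.03. The type I chains of the same cow read -0.97 and -0.77 for COL1A1 and -0.56 and 0.035 for COL1A2. These 4 probes of types III and VI thus lay further from 0 than both type I chains in this cow, on both arrays. They were picked after the values were seen, in a cow with an SD of 0.70 over probes, against 0.22 to 0.32 in the others. The lowest SCNT values of PPIB, TIMP2 and BGN were -4.21, -3.88 and -3.24, so values this low were not particular to collagens. In SCNT replicates 1 to 4 the means were -1.18 ± 0.53 for COL3A1, -0.64 ± 0.28 for COL6A1, -0.45 ± 0.32 for that COL6A2 probe, -1.49 ± 0.35 for COL6A3, -0.84 ± 0.52 for COL1A1 and -1.004 ± 0.72 for COL1A2 (SD, n = 4). Leaving the cow out therefore moved COL6A1 and the COL6A2 probe by over 1.5 times, and the type I means by less. The stromal marker median of this cow, -0.48, was inside the range of the other SCNT cows, -0.62 to -0.20. A list median does not describe single markers, and the part of stromal content in the values of this cow was not tested.

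The IVF-ET ratios describe the collagen difference between the tissues in cows other than the SCNT cows. They are no independent check, since the mean over all cows, from which the members were also named, takes in the IVF-ET cows. Earlier results of all cows were also known. No collagen probe passed an adjusted p of 0.05 in the limma fit over all probes, and neither did any other probe (0% called, 1099 probes with an unadjusted p under 0.05). The closest were COL1A2 (-0.88 ± 0.21 SE, adjusted p = 0.222, below 0 in 4 of 4 cows) and COL6A3 (-0.92 ± 0.22, adjusted p = 0.222, 4 of 4). COL3A1 had an adjusted p of 0.465 and COL1A1 of 0.692, and the other 4 probes had adjusted p values from 0.795 to 0.986. Before adjustment, COL1A2, COL3A1 and COL6A3 were under 0.05 on the negative side, 3 of 8 probes, against 3.96% of all probes. Below 0 in every IVF-ET cow were 4 of 8 probes, the same 3 and COL6A1, against 11% of all probes. Without SCNT replicate 5, COL3A1 reached an adjusted p of 0.037, COL6A3 0.056 and COL1A2 0.067 with unchanged IVF-ET means. With IVF-ET replicate 3 kept and its first array turned, COL6A3 and COL1A2 passed with adjusted p values of 0.024 and 0.030, and with its second array turned 0 of 8 passed. Fitted on IVF-ET cows alone, COL1A2, COL3A1 and COL6A3 passed (0.011, 0.026 and 0.027). Calls over all probes rose under these settings too, so the passes were not particular to collagens. They were 21 without SCNT replicate 5, 79 with the first array of replicate 3 turned and 105 with IVF-ET cows alone, against 0 in the main fit. With the second array turned they stayed at 0.

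In AI cows no collagen probe differed from 0 after adjustment, under either sign (adjusted p at or above 0.952, which was the smallest over all probes, 0% called, 604 with an unadjusted p under 0.05). COL6A3 was 0.68 ± 0.19 (SE) and COL1A1 0.52 ± 0.19 as deposited, each above 0 in 4 of 5 cows, and these 2 of 8 probes had an unadjusted p under 0.05 on the positive side, against 2.21% of all probes. COL3A1 was the one member above 0 in all 5 AI cows, which held for 2.74% of all probes. The AI cows enter the mean that also named the members, so these counts are no independent check.

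Differences between groups depended on how the AI sign was read. The mean over all cows, from which the members were also named, takes in the IVF-ET and AI cows. The p values below are therefore no independent check. As deposited, IVF-ET minus AI was -1.61 ± 0.29 for COL6A3 (SE, adjusted p = 0.060), -1.28 ± 0.28 for COL1A2 (0.150), -1.57 ± 0.46 for COL3A1 (0.304) and -0.94 ± 0.29 for COL1A1 (0.326), so no collagen probe passed, while 0.0289% of all probes did on this side. IVF-ET cows lay wholly below AI cows for COL1A2, COL3A1 and COL6A3, 3 of 8 probes, against 1.85% of all probes. With the AI sign turned, the differences were -0.24 for COL6A3, -0.49 for COL1A2, -0.36 for COL3A1 and 0.11 for COL1A1, each with an adjusted p of 0.999, and 0 of 8 probes separated the groups (0.811% of all probes). Without SCNT replicate 5, the deposited sign gave adjusted p values of 0.0076 for COL6A3 and COL3A1 and 0.042 for COL1A2. Without AI replicate 5, COL6A3 reached 0.019. Over all probes, 37 passed without SCNT replicate 5 and 25 without AI replicate 5, against 8 in the main fit.

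SCNT values chose the members, so the differences that use them are given as sizes. SCNT minus AI as deposited was -2.37 ± 0.27 for COL6A3, -2.31 ± 0.43 for COL3A1, -1.37 ± 0.27 for COL1A1 and -1.25 ± 0.27 for COL1A2 (SE from limma). With the AI sign turned these were -1.002, -1.09, -0.32 and -0.46. Below 0 in every SCNT cow were 7 of 8 probes (6.98% of all probes), and SCNT cows lay wholly below AI cows as deposited for COL1A1, COL3A1, COL5A3, COL6A3 and the COL6A2 probe of spots 24571 and 24572, 5 of 8 (1.65% of all probes), and for 0 of 8 with the AI sign turned (0.427%). The same 4 genes were among the 146 negative SCNT calls (1.06% of all probes) and the 74 negative SCNT minus AI calls (0.536%), counts from which nothing is read here. They were also the 4 collagen calls over all cows with the AI sign turned (1.61% of all probes), where the deposited sign gave 0 (0%). The mean over all cows also served to name the members, so nothing is read from this count either. SCNT minus IVF-ET was -0.76 ± 0.29 for COL6A3, -0.74 ± 0.46 for COL3A1, -0.64 ± 0.45 for COL6A1, -0.91 ± 0.52 for the COL6A2 probe of spots 24571 and 24572, -0.43 ± 0.29 for COL1A1 and -0.40 ± 0.20 for COL5A3. The SCNT and IVF-ET cows overlapped for 8 of 8 collagen probes, while 1.14% of all probes had SCNT wholly below IVF-ET, and 0% of all probes passed the test of this difference on that side. Without SCNT replicate 5 the median of this difference over the family was -0.25, against -0.54 with it.

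How alike the chains were from cow to cow was described by the uncentred correlation, which does not change when the sign of a cow is turned. Over the 14 cows it was 0.94 between COL3A1 and COL6A1, 0.95 between COL6A1 and the COL6A2 probe of spots 24571 and 24572, 0.93 between COL3A1 and COL6A3, and 0.84 between the partner chains COL1A1 and COL1A2. COL1A2 and COL3A1 stood at 0.71 with SCNT replicate 5 and at 0.95 without it. The 2 COL6A2 probes stood at 0.20 with each other, and at -0.067 without that cow. All chains were read on the same arrays and share the group means. With the group means removed, r was 0.93 for COL3A1 and COL6A1 (0.79 without SCNT replicate 5), 0.59 for COL1A1 and COL1A2 (0.65), and -0.024 for COL1A2 and COL3A1 (0.53).

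**Figure D3:**
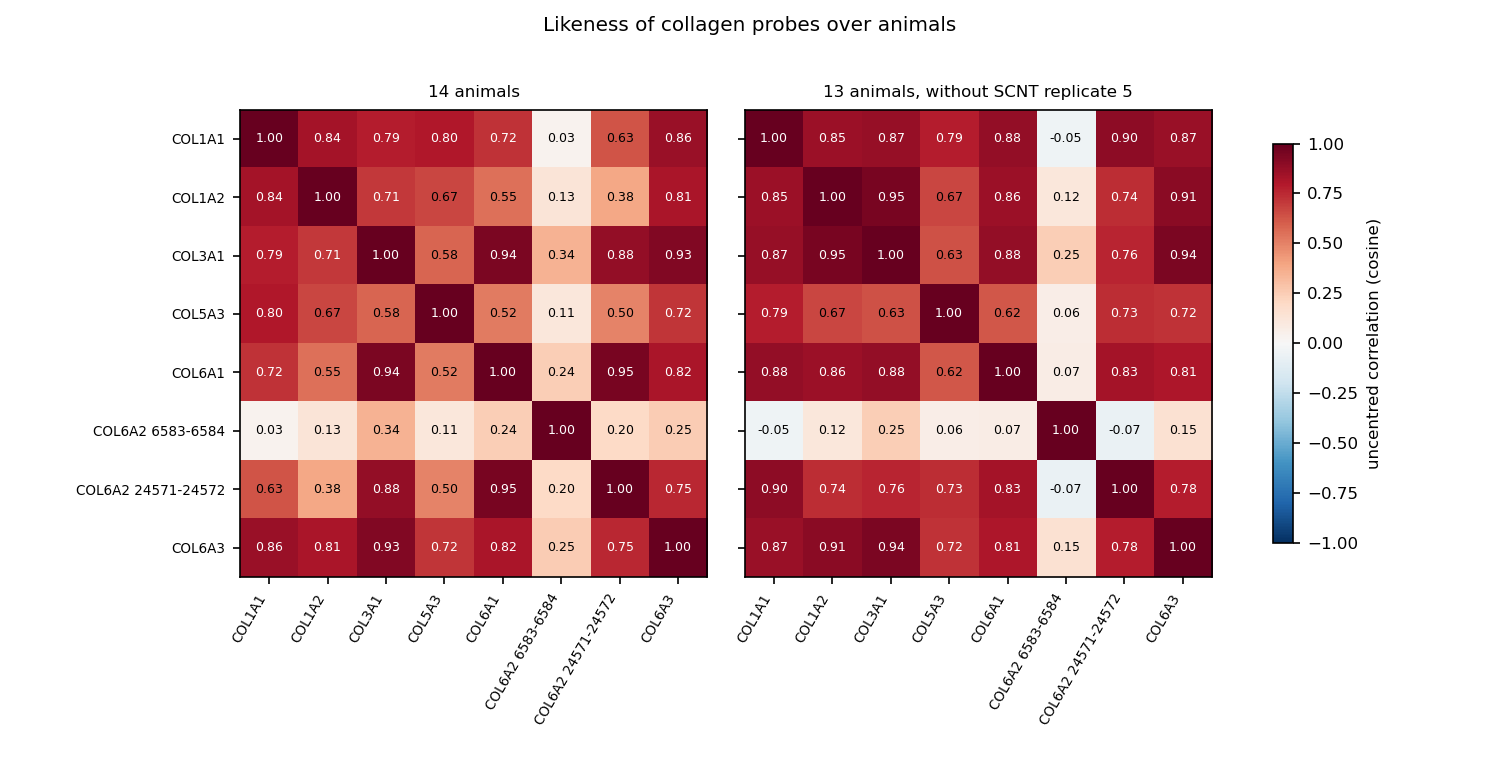
Uncentred correlation (cosine, colour scale from -1 to 1) between the collagen probes over the 14 cows on the left and over 13 cows without SCNT replicate 5 on the right. The COL6A2 probe of spots 6583 and 6584 is pale against every other probe in both panels, and COL1A2 is closer to COL3A1 on the right (0.95) than on the left (0.71).

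Other named genes with the most similar pattern over the 14 cows were sought for the 3 lead chains. For COL6A3 they were STRA6, a retinol transporter (0.96), AEBP1, a collagen-binding secreted protein (0.96), the imprinted RNA H19 (0.96), the actin-bundling protein FSCN1 (0.95) and the microfibril protein MFAP2 (0.94). For COL3A1 they were AEBP1 (0.96), SEPTIN2, a cytoskeletal GTPase (0.93), RCN1, a calcium-binding protein of the endoplasmic reticulum (0.92), the glycolytic enzyme GAPDH (0.92) and ARHGEF17 (0.91). For COL1A2 they were the cytolinker DST (0.92), the retinoic acid-binding protein CRABP2 (0.89), YWHAQ, a signalling adaptor (0.88), FGD5, a Cdc42 exchange factor (0.87) and the gap junction protein GJA1 (0.87). Without SCNT replicate 5, AEBP1 ranked 6 among all probes for COL3A1, while SEPTIN2, RCN1, GAPDH and ARHGEF17 ranked 54, 25, 43 and 85 with cosines of 0.84, 0.87, 0.85 and 0.80. The place of these 4 genes among the 5 closest to COL3A1 thus depended on that cow. For comparison, percentile 99 over all probes was 0.82, 0.82 and 0.72 for COL6A3, COL3A1 and COL1A2. AEBP1 was shared by COL6A3 and COL3A1, with means of -0.87, -0.40 and 0.39 in SCNT, IVF-ET and AI cows.

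Other collagen genes were not chosen by their ratios, so their values are given with no comparison to the family. Over 22 of them the median ratio was -0.17 in SCNT, -0.14 in IVF-ET and 0.065 in AI cows, and 18 of 22 had a negative SCNT mean, as did 50.2% of all probes. In SCNT, 3 of 22 passed the adjusted test with a negative ratio and 0 with a positive one, against 1.06% and 0.767% of all probes: COL18A1, a basement membrane collagen (-1.01 ± 0.23 SE), COL11A2, a minor fibrillar chain (-0.60 ± 0.14), and COL7A1, the anchoring fibril collagen (-0.54 ± 0.12). COL27A1 was at -0.57 ± 0.16 and did not pass. None of the 22 passed in IVF-ET or AI cows.

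Genes for making, cutting and binding collagen were counted in the same way. These lists were drawn up with earlier results of these data known, so their counts are a description and no independent support. Of 24 measured genes of collagen folding, processing and cross-linking, 2 passed on the negative side in SCNT, SERPINH1, the collagen chaperone HSP47 (-0.63 ± 0.15), and LOXL3, a lysyl oxidase family member (-0.40 ± 0.097), with list medians of -0.23 in SCNT, -0.091 in IVF-ET and 0.14 in AI. Of 28 matrix proteins that lie with collagens, 4 passed on the negative side: MFAP2 (-0.97 ± 0.17), SPON1 (-0.94 ± 0.19), EMILIN1, an elastic fibre glycoprotein (-0.90 ± 0.15), and TNC, tenascin C (-0.58 ± 0.11), with list medians of -0.31 in SCNT, -0.12 in IVF-ET and 0.16 in AI. Breakdown genes had 1 call of 13, the gelatinase MMP2 (-0.86 ± 0.15), and collagen receptors 1 of 8, ANTXR2, a type VI collagen-binding receptor (-0.47 ± 0.080). In the TGF-beta list the single call of 15 lay on the positive side, CCN2, a matricellular growth factor (1.18 ± 0.20), opposite to the collagens, with 1.26 ± 0.23 in IVF-ET and -0.49 ± 0.20 in AI cows. None of these lists had a call in IVF-ET or AI cows, and their counts compare with 1.06% of all probes called negative and 0.767% called positive in SCNT.

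Markers of the cell types that the tissue holds are given beside the collagens. Their lists were drawn up with earlier results of these data known, so the counts are a description and no independent support. Of 10 measured stromal markers, 5 passed on the negative side in SCNT (1.06% of all probes), among them IGFBP6 (-1.35 ± 0.26), SFRP1 (-1.32 ± 0.23), SFRP2 (-1.27 ± 0.20) and THY1 (-0.97 ± 0.19). The stromal median per cow ran between -0.62 and -0.20 in SCNT, -0.33 and -0.22 in IVF-ET, and -0.11 and 0.43 in AI. Of 16 epithelial markers, 4 passed on the positive side in SCNT (0.767% of all probes), EZR (0.98 ± 0.23), CGN (0.66 ± 0.12), DSP (0.63 ± 0.14) and OCLN (0.51 ± 0.12), with a median per cow between 0.14 and 0.56 in SCNT, 0.29 and 0.80 in IVF-ET, and -0.55 and 0.22 in AI. By list median, stroma and collagens thus lay on one side and epithelium on the other in SCNT and IVF-ET cows. Single markers were less uniform. Stromal means were negative for 9 of 10 markers in SCNT and 7 of 10 in IVF-ET. In SCNT and IVF-ET, VIM was at -0.054 and 0.11, NT5E at -0.072 and 0.083, and S100A4 at 0.15 and 0.81. TWIST1 was at -0.15 and -0.10, and TWIST2 at -0.11 and -0.12. Of the 16 epithelial markers, 1 had a negative mean in SCNT, KRT19 (-0.29), and 1 in IVF-ET. The part of cell make-up in the collagen ratios was not tested, and in these pieces of tissue fewer fibroblasts and less collagen RNA per fibroblast cannot be told apart.

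The remaining marker lists had no call in any group. Their medians in SCNT, IVF-ET and AI cows were -0.12, -0.10 and 0.19 for 9 smooth muscle genes, 0.0039, 0.10 and 0.063 for 9 endothelial genes, 0.091, 0.031 and 0.040 for 13 leukocyte genes, and -0.033, 0.0093 and -0.016 for 4 red cell genes. For 12 trophoblast genes the medians were -0.35, -0.13 and -0.052, with -1.42 in SCNT replicate 3 and -0.48 in SCNT replicate 4, against -0.22 to 0.11 in the other 12 cows. The collagen medians of those SCNT cows, -0.42 and -0.92, did not stand outside those of the other SCNT cows. The part of placental RNA in the collagen values was not tested.

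**Figure D4:**
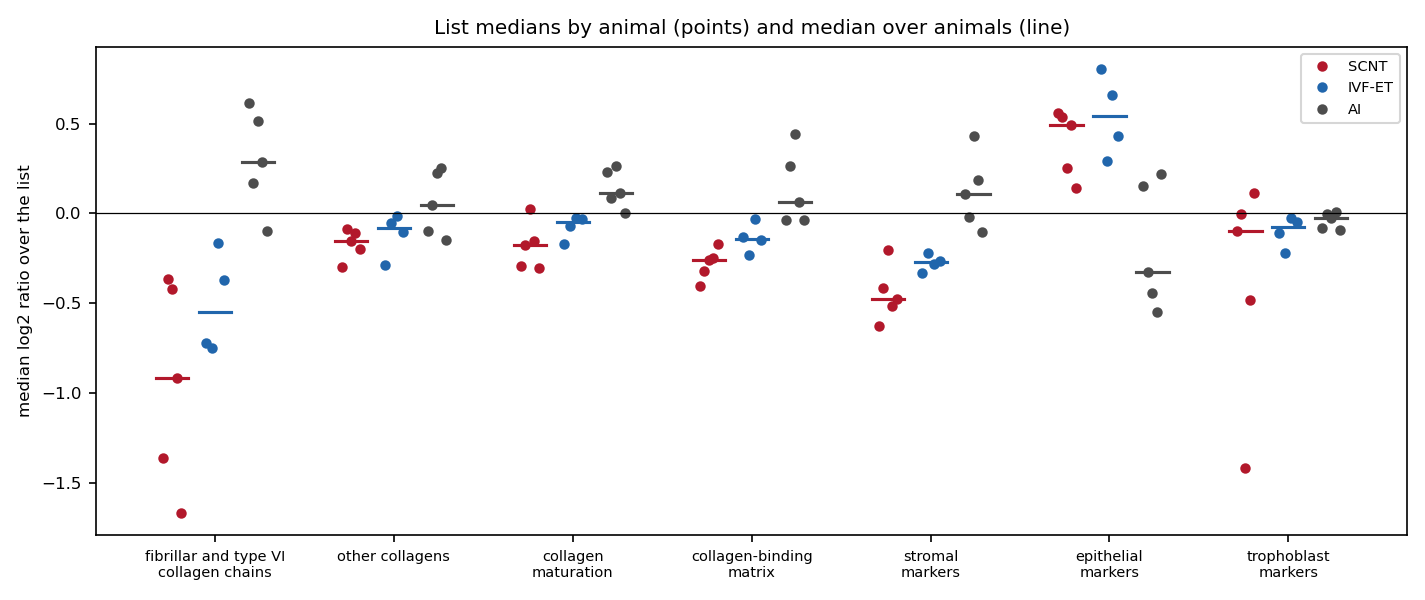
Median log2 ratio (vertical axis, sign as deposited) of the collagen probes and of 6 companion and marker lists; points are the medians of single cows in SCNT, IVF-ET and AI, and lines the medians over cows. The collagen points lie between -1.67 and -0.37 in SCNT and between -0.75 and -0.16 in IVF-ET cows, and the epithelial points between 0.14 and 0.56 in SCNT and between 0.29 and 0.80 in IVF-ET cows.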

How the data were processed

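RNA of caruncular and intercaruncular endometrium was hybridised on 30 arrays with 2 colours, 2 per cow, after aminoallyl labelling with Cy3 and Cy5, per the labels. The deposited values are signed, centred log ratios, taken here as log2. Their base, normalisation and channel order are not given in the sources used here, and scanner intensities were not used, so signal over background is unknown. Adjacent duplicate spots (27648) were averaged into 13824 probes. Genes were named through the platform annotation, in which 8645 probes had 1 symbol, 105 several and 5074 were not listed. Gene IDs were matched to the bovine table of assembly ARS-UCD2.0, in which 8620 probes had an entry.

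Array medians were set to 0. A dye effect for each probe was estimated from cows with both orientations and subtracted before a cow's arrays were averaged, so that the cow is the replicate. Between the arrays of a cow the collagen probes differed by a median of 0.19 to 0.69 per probe, and by up to 4.71 in AI replicate 1. Duplicate spots differed by medians of 0.063 to 0.16. The spread between 4 or 5 cows per group sets the precision. limma 3.58.1 in R 4.3.3 fitted 3 group means (lmFit, eBayes, 1 spread per probe over 14 cows), two-sided, with Benjamini-Hochberg adjustment over 13818 probes with values in at least 4 of 5 SCNT and AI cows and 3 of 4 IVF-ET cows, and a threshold of 0.05. The pipeline was tested on simulated data. A group's arrays have neighbouring numbers, per the labels, so group and array order cannot be told apart.

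The collagen members, the companion lists and the settings were chosen with earlier results of these data known. Named genes are every member, up to 4 genes with the largest SCNT mean among those past the threshold in each list (2 as values where none passed, left out here for lists described by medians), the 4 largest other collagens, and the 5 genes closest to each of COL1A2, COL3A1 and COL6A3. No coordinates are printed because the files name no genome build. Alternatives covered the reading as dye ratios, turned signs, IVF-ET replicate 3, scaling, spots, filters, blocks and each cow left out.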

Additional observations from a re-analysis of the deposited data

Results flagged for a closer look

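In 4 of 24 groups of cows examined, 1 cow stood outside the others by Dixon's criterion, where chance gives about 1 in 20 for a single group. The 24 come from several probes read on the same cows and are not independent, so no excess over chance is read from the count. SCNT replicate 5 was at -3.13 for COL6A1 and at -3.57 for the COL6A2 probe of spots 24571 and 24572, low on both arrays. SCNT replicate 1 was at -1.24 for COL5A3. IVF-ET replicate 4 was at 0.45 for the same COL6A2 probe, on the other side from the remaining IVF-ET cows, with arrays at 0.11 and 0.79.

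SCNT minus AI, with the AI sign as deposited, was -1.37 for COL1A1, -1.25 for COL1A2, -2.31 for COL3A1 and -2.37 for COL6A3. SCNT values chose the family, so nothing is read from these differences. With the AI sign turned they were -0.32, -0.46, -1.09 and -1.002. For COL3A1 every IVF-ET cow was negative and every AI cow positive as deposited. The difference of -1.57 did not pass the limma test of the difference itself (adjusted p = 0.304).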

How the results depend on the processing

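Of 189 collagen medians under 25 other settings, 177 moved by less than the spread between cows. Of 936 list medians, 881 kept their sign. Of the 25 settings, 14 left out a single cow, which leaves the means of the other groups all but unchanged. With no dye effect taken off, the SCNT and IVF-ET means of the collagen probes were also unchanged. Many of the medians could thus hardly move, so neither count is read as a sign of stability. No paired analysis was possible because the groups hold different cows, whose numbers only follow accession order. Read as dye ratios, the collagen medians were 0.093 in SCNT, 0.033 in IVF-ET, -0.29 for IVF-ET minus AI, 0.098 for SCNT minus IVF-ET, -0.22 for SCNT minus AI, 0.16 over all cows and -0.062 with AI turned. Then 0 collagen probes passed in SCNT, in SCNT minus AI and over all cows with AI turned, against 4 each. The SCNT means of COL1A1, COL3A1, COL5A3, COL6A1, both COL6A2 probes and COL6A3 turned to 0.20, 0.30, 0.067, 0.33, 0.017, 0.064 and 0.12. The IVF-ET means of COL1A1, COL3A1, COL5A3, COL6A1 and COL6A3 turned to 0.14, 0.048, 0.10, 0.019 and 0.20, and IVF-ET minus AI of COL5A3 to 0.080.

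With AI turned, the medians were -0.36 in AI, -0.15 for IVF-ET minus AI and -0.61 for SCNT minus AI, 0 probes passed in SCNT minus AI, and 4 passed over all cows, against 0 as deposited. The AI means became -0.52, -0.40, -0.61, -0.14, -0.19, -0.021, -0.32 and -0.68 for COL1A1, COL1A2, COL3A1, COL5A3, COL6A1, the COL6A2 probes of spots 6583 and 24571, and COL6A3. IVF-ET minus AI turned to 0.11 for COL1A1, 0.079 for COL5A3 and 0.16 for COL6A2 of spot 24571.

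IVF-ET replicate 3 decided several counts. With its first array turned, 2 collagen probes passed in IVF-ET (COL1A2 and COL6A3), 2 in IVF-ET minus AI and 1 over all cows, against 0 each. With its second array turned, 0 passed in SCNT, SCNT minus AI and all cows with AI turned. The medians were then -0.15 in IVF-ET and -0.50 for IVF-ET minus AI, and the IVF-ET means of COL5A3 and the COL6A2 probes of spots 6583 and 24571 were 0.026, 0.0036 and 0.030. Scaling each array to 1 median absolute deviation gave 1 call over all cows and -0.023 for COL6A2 of spot 6583 in AI. The first spot alone gave 0.0034 for COL5A3 in IVF-ET. Arrays with the cow as a random block gave 7 calls in SCNT, 1 in IVF-ET minus AI and 1 over all cows, at a consensus correlation of 0.070. Each group or pair fitted alone gave 1 call in SCNT, 3 in IVF-ET, 1 in SCNT minus AI and 3 in IVF-ET minus AI.

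Leaving out 1 cow at a time, collagen calls ran between 1 and 4 in SCNT (1 without SCNT replicate 1, 2 without replicate 3 or 4), 0 and 1 in IVF-ET, 1 and 4 in SCNT minus AI, 0 and 3 in IVF-ET minus AI, 0 and 3 over all cows, and 4 and 6 with AI turned. SCNT minus AI had 1 call without SCNT replicate 1 or AI replicate 2, 3 or 4, and 2 without SCNT replicate 4. COL6A2 of spot 6583 ran between -0.17 and 0.026 in IVF-ET and between -0.23 and 0.0048 for IVF-ET minus AI, positive without IVF-ET replicate 1. In AI it ran between -0.051 and 0.16, negative without replicate 1, 4 or 5, and COL6A1 ran between -0.027 (without replicate 1) and 0.36. Calls over all probes moved as well. In SCNT 252 probes passed, against 2 to 325 with 1 cow left out, 0 as dye ratios or with the second array of IVF-ET replicate 3 turned, 510 with the block and 74 fitted alone. In IVF-ET 0 passed, against 21 without SCNT replicate 5, 79 with the first array of replicate 3 turned, 21 with the block and 105 fitted alone. In IVF-ET minus AI 8 passed, against 0 to 37, 33, 20 and 18. In SCNT minus AI 131 passed, against 5 to 268 with 1 cow left out, 285 with the block and 10 fitted alone. Read as dye ratios, 357 passed in AI and 2124 over all cows, against 0 each. The cause of these changes was not tested.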
